A study of Mus musculus with 2 samples.

Results

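Immediate early response genes were followed through every cell group of the mouse incisor. The 10 genes, Fos, Fosb, Jun, Junb, Jund, Egr1, Atf3, Ier2, Zfp36 and Btg2, were taken by name from the 31053 genes of a single-cell count matrix, and each name matched 1 row. They were read in every barcode that showed 500 or more genes and no more than 20% of mitochondrial counts, which left 4775 of 1546436 barcodes with any count, beside a stated aim of 10000 recovered cells. The tissue was the lower incisor pulp with its dental epithelium from untreated C57BL/6 mice aged 4 weeks, kept free of specified pathogens, without any transgene or treatment named. It had been cut up, digested with collagenase type I for 30 min at 37 °C and run on a 10x Genomics droplet system, which counts RNA molecules by unique molecular identifiers (UMIs) near their 3′ ends. The submitters list 2 samples that differ only in the sequencing lane and gave 1 joint matrix in which no cell is assigned to a lane, so the data are 1 sample, the number of animals is not given in the sources used here, and barcodes shared between libraries cannot be counted. No difference below therefore has a replicate check or a test, and every interval is a 95% interval that covers counting error only.

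Immediate early genes are switched on within minutes of a stimulus, from growth factors and cytokines to mechanical or heat stress, without new protein synthesis. Kinase cascades act on factors already bound at their promoters, among them the serum response factor and CREB, and the messages are then lost as quickly as they came. Fos, Fosb, Jun, Junb and Jund encode subunits of the dimeric factor AP-1, Egr1 a zinc finger factor, and Atf3 a CREB family factor that often represses. Zfp36 encodes tristetraprolin, which speeds the decay of AU-rich messages, Btg2 an antiproliferative protein that promotes deadenylation, and Ier2 a small nuclear protein of the same early wave. These genes are also known to respond to enzymatic tissue dissociation in many tissues.

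Promoter windows, from 250 bases before to 50 bases after the annotated start, were in the RefSeq table (build GRCm38.p6, the build of the mm10 counts) for 8 of the 10 genes. Those of Fos, Junb, Atf3 and Btg2 are shown because the first 2 stand for the AP-1 genes that moved together across cells, Atf3 for the widest gap between immune and mesenchymal cells, and Btg2 for the full response element TGACGTCA. Capitals mark the TGACG core of the cyclic AMP response element on either strand, and the letters TATAAA. The windows lie at chr12:85473640-85473939 on the plus strand (Fos), and on the minus strand at chr8:84978699-84978998 (Junb), chr1:191183284-191183583 (Atf3) and chr1:134079106-134079405 (Btg2), each printed 5′ to 3′ in the direction of the gene.
Fos: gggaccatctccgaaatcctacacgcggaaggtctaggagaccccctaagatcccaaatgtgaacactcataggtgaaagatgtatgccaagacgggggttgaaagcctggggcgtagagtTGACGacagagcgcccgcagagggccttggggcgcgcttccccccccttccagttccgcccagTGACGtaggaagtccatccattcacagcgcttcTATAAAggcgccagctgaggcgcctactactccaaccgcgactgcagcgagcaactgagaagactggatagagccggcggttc
Junb: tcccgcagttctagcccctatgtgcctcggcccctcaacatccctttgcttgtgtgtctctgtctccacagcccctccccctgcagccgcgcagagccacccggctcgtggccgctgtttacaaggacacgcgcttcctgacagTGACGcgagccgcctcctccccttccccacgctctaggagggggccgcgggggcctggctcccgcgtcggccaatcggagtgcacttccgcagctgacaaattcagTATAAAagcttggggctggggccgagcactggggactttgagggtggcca
Atf3: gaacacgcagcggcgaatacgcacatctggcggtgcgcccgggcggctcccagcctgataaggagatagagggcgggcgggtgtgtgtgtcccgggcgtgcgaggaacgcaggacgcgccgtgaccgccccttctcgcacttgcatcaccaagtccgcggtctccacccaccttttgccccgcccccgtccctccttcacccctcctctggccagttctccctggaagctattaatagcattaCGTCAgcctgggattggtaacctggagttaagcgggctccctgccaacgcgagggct
Btg2: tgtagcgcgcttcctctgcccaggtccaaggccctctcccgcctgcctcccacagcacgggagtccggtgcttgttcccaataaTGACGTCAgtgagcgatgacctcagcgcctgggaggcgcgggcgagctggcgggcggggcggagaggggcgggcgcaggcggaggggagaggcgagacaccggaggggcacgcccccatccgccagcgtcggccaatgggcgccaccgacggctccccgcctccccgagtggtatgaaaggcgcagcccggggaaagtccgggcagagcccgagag

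The full element TGACGTCA, which reads the same on both strands, stood in the Btg2 window, 166 bases before the start, and in 588 of 32851 promoter windows of the table (1.79%). Its TGACG core, searched on both strands and contained in the full element, was found in 5 of the 8 windows (Fos, Fosb, Junb, Atf3 and Btg2), against 20.8% of all windows. Fos held it at 129 and 66 bases before the start and TATAAA at 33 bases before. Junb held TATAAA at the RefSeq start itself, which lies 30 bases upstream of the GENCODE M21 gene at chr8:84974484-84978718. TATAAA stood in 13.6% of all windows. The Jund start of the table lies 1210 bases upstream of the GENCODE gene, and that of Zfp36 inside it. A CArG box, the site type of the serum response factor, was found by its consensus in 1 of the 8 windows, that of Zfp36 (58 bases before the start), against 1.63% of all windows. The AP-1 letters TGANTCA (7.81% of all windows) and the EGR letters GCGTGGGCG (0.612%) were in none of the 8. These are letter matches in 300 bases and nothing more. The Atf3 window lies inside the long GENCODE gene on chromosome 1 (chr1:191170296-191218039) and belongs to an internal start.

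After doublets and cells carrying free haemoglobin RNA were set aside, 4502 cells with a median of 5779.5 UMIs remained. Clustering left out the 10 genes and their related lists, and its 26 clusters carry the name of the gene that leads each. Classes were named from marker genes. There were 769 epithelial, 1398 immune, 74 endothelial, 57 erythroid and 2204 mesenchymal cells, although the tissue label names mesenchyme alone. Median UMIs per cell differed between them: 9304 in epithelial, 2863 in immune, 4495.5 in endothelial and 7005.5 in mesenchymal cells. Levels are given in CPM, UMIs of the gene per 1000000 UMIs of the group. A gene was called higher or lower when it differed at least 2-fold and had at least 30 UMIs over both sides, a limit that all 10 genes passed in every comparison of classes.

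All 10 genes were higher in immune than in mesenchymal cells, by 2.31-fold for Jund to 99.2-fold for Atf3. The median log2 ratio was 2.54, against -0.44 over all 13158 measured genes, of which 18.8% were called higher and 32.6% lower. Atf3 stood at 574 CPM (554 to 594) in immune cells and 5.78 CPM (4.72 to 7.01) in mesenchymal cells. Zfp36 stood at 756 CPM in immune and 16.9 CPM in mesenchymal cells, and Btg2 at 581 CPM in immune and 25.5 CPM in mesenchymal cells. The log2 ratios were 6.63 for Atf3, 5.48 for Zfp36 and 4.51 for Btg2, the 3 widest gaps, in the repressor and in both genes that act on message decay. Among the AP-1 genes, Junb was apart, with 1798 CPM in immune and 115 CPM in mesenchymal cells (log2 3.97). Jun had 677 CPM in immune and 131 CPM in mesenchymal cells, and Fos 708 CPM in immune and 196 CPM in mesenchymal cells. Fosb had 300.2 CPM in immune and 98.8 CPM in mesenchymal cells, and Jund 859 CPM in immune and 373 CPM in mesenchymal cells. The log2 ratios of these 4 ran from 1.21 (Jund) to 2.37 (Jun). Egr1 had 739 CPM in immune and 112 CPM in mesenchymal cells (log2 2.72), and Ier2 403 CPM in immune and 128 CPM in mesenchymal cells (log2 1.65).

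Much of the immune excess of Fos, Fosb, Jun and Egr1 lay in the macrophage-like Ccl7 and Il1a clusters. With both left out, a choice made after seeing the data, 6 of 10 genes were still called higher in immune cells, against 16.4% of 12905 measured genes, and the median log2 ratio was 1.25, against -0.61 over those genes, with Fos at 0.70, Fosb at 0.70, Jun at 0.44 and Egr1 at 0.40. Atf3 then had a log2 ratio of 5.49. Jund, the gene with the smallest ratio, was just under the 2-fold limit when cells were held to at most 10% mitochondrial counts (log2 0.98).

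Endothelial cells had 9 of the 10 genes above mesenchymal cells, with a median log2 ratio of 1.81. Of all 12274 measured genes 18% were called higher and 16.9% lower, and their median was 0, with a gene of no endothelial UMI held at or below an equal level. Atf3 was again furthest, at 74.1 CPM (51.0 to 104) in endothelial and 5.78 CPM in mesenchymal cells (log2 3.68), on 33 endothelial UMIs. Zfp36 (log2 2.84), Junb (2.74) and Btg2 (2.56) followed. Jund, with 595 CPM in endothelial and 373 CPM in mesenchymal cells, was within 2-fold (log2 0.67). These levels come from 74 cells. The 7 macrophage marker genes summed to 69.6 CPM in endothelial cells, with 2 at 0, and to 23.7 CPM in mesenchymal cells. The part of macrophage RNA in the endothelial levels was not tested.

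Epithelial and mesenchymal cells were close in most of the 10 genes. In epithelial cells 3 of the 10 were higher and 0 lower, with a median log2 ratio of 0.27 against -0.29 over all 12920 measured genes, of which 10.5% were called higher and 20% lower. Atf3 stood at 72.6 CPM in epithelial cells (67.5 to 78.1), against 5.78 CPM in mesenchymal cells (log2 3.65). Btg2 stood at 78.8 CPM in epithelial cells, against 25.5 CPM in mesenchymal cells (log2 1.63), and Zfp36 at 46.8 CPM in epithelial cells, against 16.9 CPM in mesenchymal cells (log2 1.47). All 3 comparisons share their mesenchymal cells. Egr1 came close, at 201 CPM in epithelial cells, against 112 CPM in mesenchymal cells (log2 0.85). It passed 2-fold when genes above 1% of either total were left out (log2 1.14), when 4 of the 10 and 13.8% of all measured genes were called higher, a change that moved the median of all genes to 0.01. Fos stood at 264 CPM in epithelial cells, against 196 CPM in mesenchymal cells (log2 0.43). Fosb, Jun, Junb, Jund and Ier2 lay between -0.22 and 0.11 on the log2 scale, and on the reduced totals all 5 lay between 0.08 and 0.41, so no direction is given for them.

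**Figure D1:**
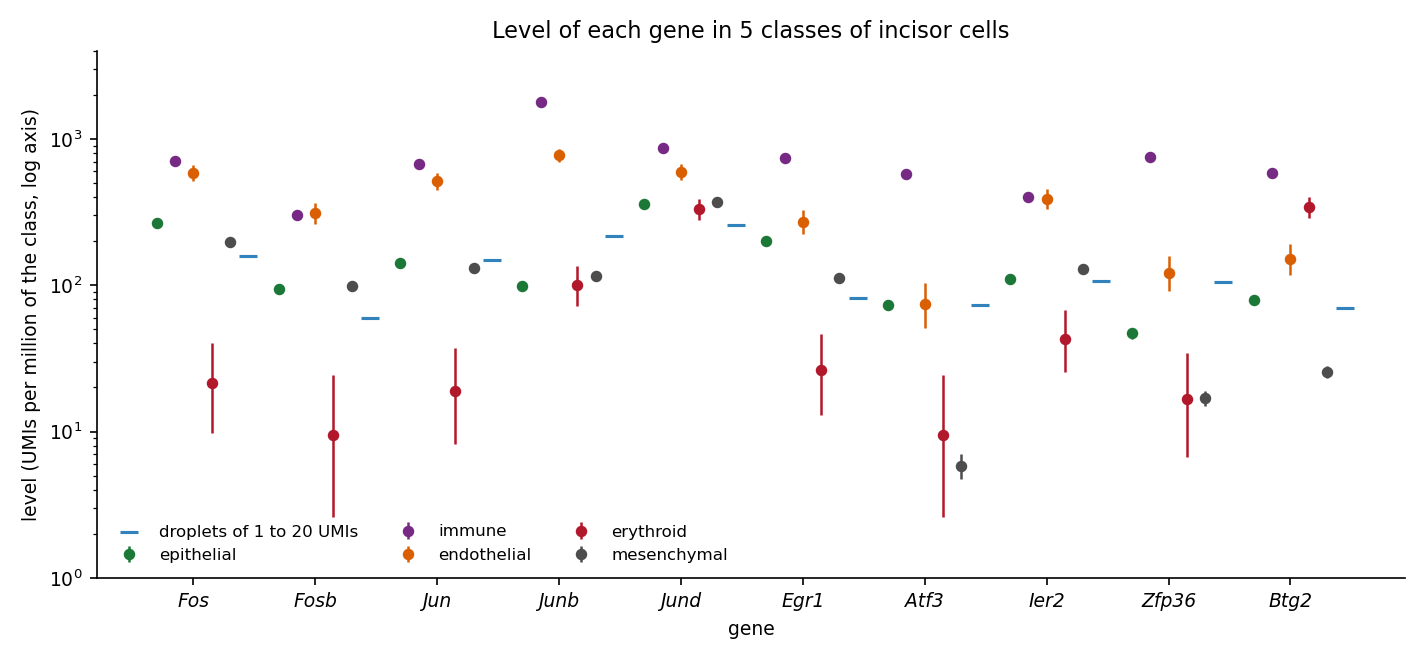
Level of each of the 10 genes (log axis, CPM) in epithelial, immune, endothelial, erythroid and mesenchymal cells, with 95% Poisson intervals as bars, and in droplets of 1 to 20 UMIs (blue dashes). Immune cells lie above mesenchymal cells for all 10 genes, and mesenchymal Atf3, at 5.78 CPM, lies far below the droplets at 72.9 CPM.

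**Figure D2:**
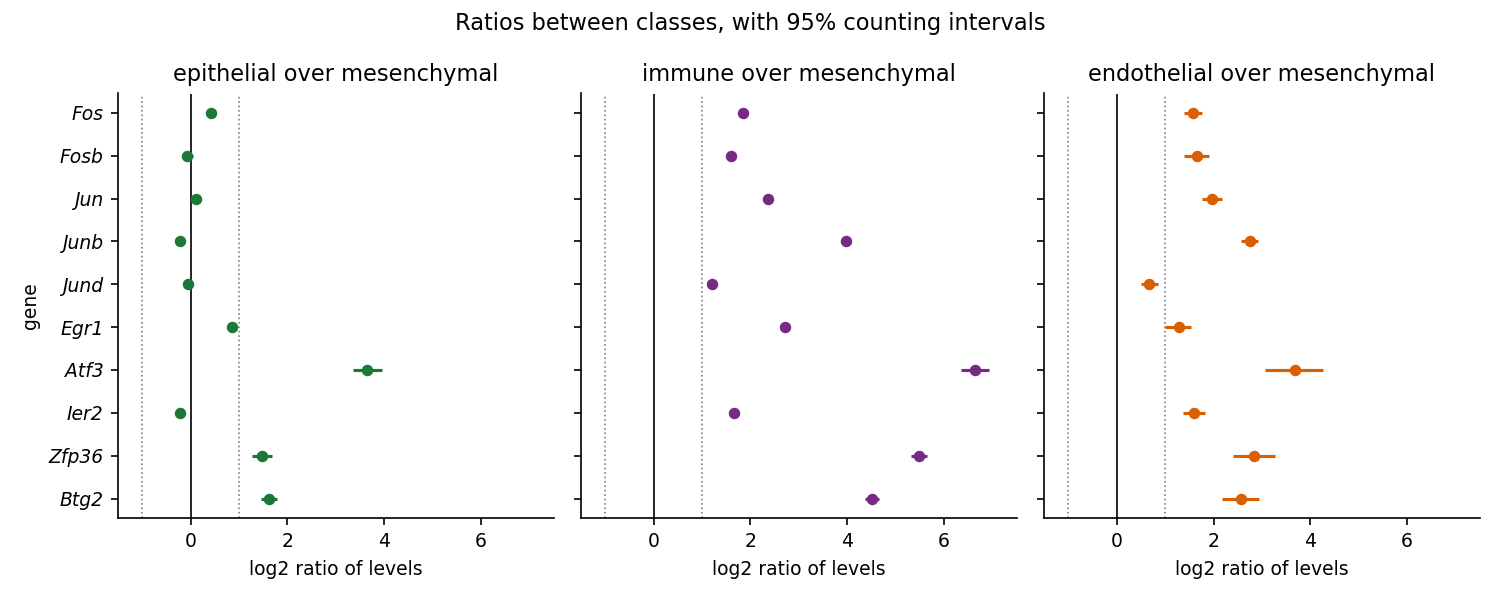
Log2 ratio of each gene's level in epithelial, immune and endothelial cells over mesenchymal cells (horizontal axis), with 95% counting intervals as bars. Dotted lines mark 2-fold. Points past the right dotted line number 3 of 10 for epithelial, 10 of 10 for immune and 9 of 10 for endothelial cells.

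Free RNA in the suspension was read from 1465970 droplets of 1 to 20 UMIs, which held 2881242 UMIs in all. The 10 genes together made up 1275 CPM there (1235 to 1317), against 1467 CPM in epithelial cells and 1202 CPM in mesenchymal cells. These totals hold unlike mitochondrial shares. Of the droplet UMIs 1997596 were non-mitochondrial, while the median mitochondrial share was 5.90% in epithelial and 6.78% in mesenchymal cells. On non-mitochondrial totals the 10 genes stood at 1840 CPM in droplets. Such levels were not computed for single classes, so closeness to the droplets depends on the totals. No cell type here is known to lack these genes, so the droplets stand as the nearest measure of background. Erythroid cells, given beside them, are no such measure for Btg2, which stood at 339.5 CPM there and 70.1 CPM in droplets. The macrophage markers summed to 297 CPM in erythroid and 23.7 CPM in mesenchymal cells. The part of macrophage RNA in the erythroid levels was not tested. Mesenchymal Jun (131 CPM, against 148 CPM in droplets), Junb (115 against 215 CPM), Zfp36 (16.9 against 105 CPM) and Btg2 (25.5 against 70.1 CPM) did not exceed the droplet level. On totals of all UMIs, epithelial Jun, Junb and Zfp36 did not exceed these droplet levels either, and epithelial Btg2 was little above its own. Epithelial Atf3, at 72.6 CPM, and endothelial Atf3, at 74.1 CPM (51.0 to 104), were on the same totals close to the droplet level of 72.9 CPM. Mesenchymal Atf3 at 5.78 CPM was far below it. A CPM value from droplets that hold only free RNA is no threshold for a cell, whose free RNA is a part of its total. The part of free RNA in the low levels was not tested.

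Erythroid cells had their highest levels of the 10 genes in Btg2 and Jund. Their Btg2 level was 339.5 CPM (286 to 400.0), against 25.5 CPM in mesenchymal cells, and Jund was 330.0 CPM, against 373 CPM in mesenchymal cells. Fos, at 21.4 CPM in erythroid cells (9.77 to 40.6), and Jun, at 19.0 CPM in erythroid cells (8.20 to 37.4), were well under the mesenchymal 196 CPM for Fos and 131 CPM for Jun. Btg2 had a UMI in 47.4% of erythroid cells (34.0 to 61.0, exact binomial) once each cell was thinned at random to 2000 UMIs.

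Within the immune class the genes did not move as a block. The 7 genes Fos, Fosb, Jun, Junb, Egr1, Atf3 and Zfp36 were at least 2-fold higher in the Ccl7 cluster, 364 macrophage-like cells that carry the chemokine genes Ccl7, Ccl2 and Ccl12, than in the other immune cells, where 18.5% of measured genes were called higher. Fos had 1297 CPM in the Ccl7 cluster and 342 CPM in the other immune cells (log2 1.92). Jun had 1436 CPM in the Ccl7 cluster and 205 CPM in the others (log2 2.81), and Egr1 1523 CPM in the Ccl7 cluster and 252 CPM in the others (log2 2.59). Junb was called by a narrow margin (2619 CPM in the Ccl7 cluster, 1287 CPM in the others, log2 1.02) and was not called on reduced totals, which left 6 genes (16.7% of measured genes). Ier2, Jund and Btg2 were within 2-fold.

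The Il1a cluster, 62 macrophage-like cells led by the cytokine gene Il1a, had another mixture. Atf3 (1427 CPM in the Il1a cluster, 529.9 CPM in the other immune cells), Zfp36 (1840.5 and 700.2 CPM), Junb (3819 and 1694 CPM) and Egr1 (1462 and 702 CPM) were at least 2-fold higher, 4 of 10 genes against 5.89% of all measured genes. Fos stood at 624 CPM in the Il1a cluster and 712 CPM in the other immune cells, within 2-fold, as were Fosb and Jun. Junb had a UMI in all 47 of its thinned cells. The summed level of the 10 genes was alike in both macrophage-like clusters, 11873 CPM in the Il1a cluster (11459 to 12298) and 11334 CPM in the Ccl7 cluster (11189 to 11481), and in the H2-Eb1 cluster, which shares macrophage markers and leads with MHC class II genes, it was 5069 CPM.

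B-like cells combined high Jund with low Fos. Btg2 was high too, but within 2-fold of the other immune cells in both B clusters, and it stood at 906 CPM in the Retnlg cluster. The dendritic-like Cox6a2 cluster had Jund at 1310 CPM and Fos at 84.1 CPM. Over both B clusters Jund stood at 2373 CPM and Btg2 at 937 CPM, while Fos was at 24.4 CPM (12.2 to 43.6) and Egr1 at 28.8 CPM (15.3 to 49.3). In the Vpreb3 cluster, 81 cells that also lead with the precursor gene Rag1, Jund was 2589.5 CPM against 783 CPM in the other immune cells (log2 1.73; 16.4% of measured genes were called higher). The same cluster had 8 of 10 genes at least 2-fold lower, against 20.7% of measured genes, among them Egr1 at 8.87 CPM (771 CPM in the other immune cells) and Fos at 17.7 CPM (738 CPM in the others). Atf3 had 0 UMIs in the Vpreb3 cluster, which by the limit of 3 counts allows a level of up to 13.3 CPM and makes it at least 45-fold lower than the 599 CPM of the other immune cells. The Ms4a1 cluster, which holds the more mature B-cell marker, had 1 higher gene (12.8% of measured genes) and 6 lower (19.6%). The higher one was Jund, at 2158 CPM against 802 CPM in the other immune cells. A count of 1 higher gene is near that share.

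T or NK-like cells had another mixture, with Junb high and Jun low. Junb stood at 2372 CPM over both clusters, against 576 CPM in B-like cells, and had a UMI in 89.3% of their 103 thinned cells. Jun stood at 84.7 CPM (59.6 to 117) in the same cells and Ier2 at 607 CPM. Ier2 had its highest level of any cluster in the Gzma cluster, at 709 CPM (584 to 853), though this interval overlapped that of the next cluster, Il1a with 578 CPM (489 to 678). The Ly6c2 cluster of monocyte-like cells had Fos at 579 CPM and Zfp36 at 727 CPM, while Egr1 was at 102 CPM (78.2 to 130.3), against 1523 CPM in the Ccl7 cluster. The remaining immune clusters were each set against the other immune cells. Of the early genes, 7 were lower in the dendritic-like Cox6a2 cluster (9.33% of measured genes), 6 in the Gzma cluster (16.7%) and 5 in the Trbc2 cluster (21.8%). In the Ly6c2 cluster 3 were lower (17.6%) and in the H2-Eb1 cluster 2 (18.3%). The Ly6c2 and H2-Eb1 counts are near those shares and are no result about the immediate early genes as a set.

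The neutrophil-like clusters differed from each other. In the Retnlg cluster, 133 cells, Atf3 was 521 CPM, Btg2 906 CPM and Zfp36 537 CPM. In the Camp cluster, 55 cells with the granule genes Camp and Ngp, Atf3 was 7.55 CPM (1.56 to 22.1), Btg2 113 CPM and Zfp36 83 CPM. All 10 genes were at least 2-fold lower in the Camp cluster than in the other immune cells, a comparison in which 46.6% of all measured genes were also called lower. Genes above 1% of either side, among them Camp, Ngp and S100a8, made up 52.0% of the UMIs of the Camp cluster and 13.9% of those of the other immune cells. On totals without such genes the median log2 ratio of the 10 was -2.57, against -0.07 over all measured genes. In the Retnlg cluster 5 of the 10 were lower (42.9% of measured genes). On such reduced totals 2 were lower (29.8%) and 1 higher (14%). The Retnlg counts are near those shares and are no result about the 10 genes.

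Across the mesenchyme the highest levels lay in the Dmp1, Sfrp2 and Bglap clusters. In the Dmp1 cluster, 167 odontoblast-like cells with raised Dspp, Phex and Ifitm5, 8 of the 10 genes were at least 2-fold higher than in the other mesenchymal cells (7.55% of measured genes; median log2 1.14). Egr1 had 289.9 CPM in the Dmp1 cluster and 88.5 CPM in the others (log2 1.71), and Fos 449 CPM in the Dmp1 cluster and 163 CPM in the others (log2 1.46). Of the 8, Jund (1.02), Atf3 (1.02, interval 0.27 to 1.72) and Btg2 (1.00, interval 0.66 to 1.33) stood at the limit. Jun (log2 0.50) and Ier2 (0.84) did not reach it.

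The Sfrp2 cluster, 111 cells with Acta2 and Igfbp3 among their leading genes, also had 8 genes higher (15.4% of measured genes; median log2 1.28), with Btg2 at 89.2 CPM in the Sfrp2 cluster and 23.3 CPM in the other mesenchymal cells (log2 1.93). In the Bglap cluster, led by the bone matrix genes Bglap and Ibsp, 9 of 10 genes were higher (9.89% of measured genes; median log2 2.55), and all 10 on reduced totals (14.4%). Fos stood at 1241 CPM in the Bglap cluster (1115 to 1377), beside 1297 CPM in the Ccl7 macrophage-like cluster, and Fosb had its highest level of all 26 clusters there, 555 CPM (472 to 649), with an interval that overlapped that of the Ccl7 cluster at 511 CPM. Atf3 stood at 130.1 CPM in the Bglap cluster and 3.79 CPM in the other mesenchymal cells (log2 5.10). The Bglap cluster holds 23 cells, and 1 of them held 35 of its 37 Atf3 UMIs. Its macrophage markers summed to 24.6 CPM with 3 of 7 at 0, against 23.7 CPM over all mesenchymal cells.

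The 6 other mesenchymal clusters had lower summed levels. They ran from 722 CPM in the Lypd1 cluster (688 to 757) to 1377 CPM in the Plac8 cluster (1331 to 1423). Against the other mesenchymal cells, 4 genes were lower in the Cdk1 cluster (11.7% of measured genes) and in the Bmp3 cluster (10.3%), and 3 in the Fmod (9.74%), Lypd1 (11.8%) and Tac1 (15.3%) clusters. Atf3 had 0 UMIs in the 408 cells of the Lypd1 cluster, which by the limit of 3 counts allows up to 1.28 CPM. Of the 104 mesenchymal UMIs of Atf3, the Bglap cluster held 37, the Dmp1 cluster 22 and the Sfrp2 cluster 8. The Cdk1 cluster of dividing cells had Btg2, the antiproliferative gene, at 13.8 CPM (10.5 to 17.7), its lowest level of the 26 clusters, though the interval overlapped that of the Lypd1 cluster at 14.0 CPM (9.66 to 19.7). In the Bmp3 cluster Fos was at 69.5 CPM (58.8 to 81.5), the lowest in the mesenchyme, while Jun was at 175 CPM, beside 177 CPM in the Dmp1 cluster, so Fos and Jun were not matched across the mesenchyme. Leaving the Dmp1, Sfrp2 and Bglap clusters out of the mesenchyme, a choice made after seeing the data, gave 5 in place of 3 genes higher in epithelial cells (11.4% of 12724 measured genes were higher), the added ones being Fos (log2 1.01) and Egr1 (log2 1.71).

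The 4 epithelial clusters were nearer to each other, with summed levels of 1776 CPM in the Dspp cluster, 1775 CPM in the Grp cluster, 1371 CPM in the Krt17 cluster and 1122 CPM in the Ambn cluster of secretory ameloblast genes. In the Grp cluster, with the progenitor gene Sfrp5, 2 genes were higher than in the other epithelial cells (28.7% of measured genes). They were Junb, with 191 CPM in the Grp cluster and 69.0 CPM in the other epithelial cells (log2 1.47), and Zfp36, with 76.5 and 37.1 CPM (log2 1.04). On reduced totals 1 was called (16.1%). The Ambn cluster had Btg2 (log2 -1.22) and Junb (log2 -1.05) lower, against 40.5% of all measured genes, and 0 lower on reduced totals (19.3%), which leave out Ambn, Amelx and other genes above 1% of either side that held 45% of its UMIs. In the Krt17 cluster Atf3 was lower, at 37.7 CPM against 76.2 CPM in the other epithelial cells (7.99% of measured genes). On reduced totals 2 genes were lower there (11.6%). The Grp, Ambn and Krt17 counts are near or below those shares and are no result about the immediate early genes as a set.

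**Figure D3:**
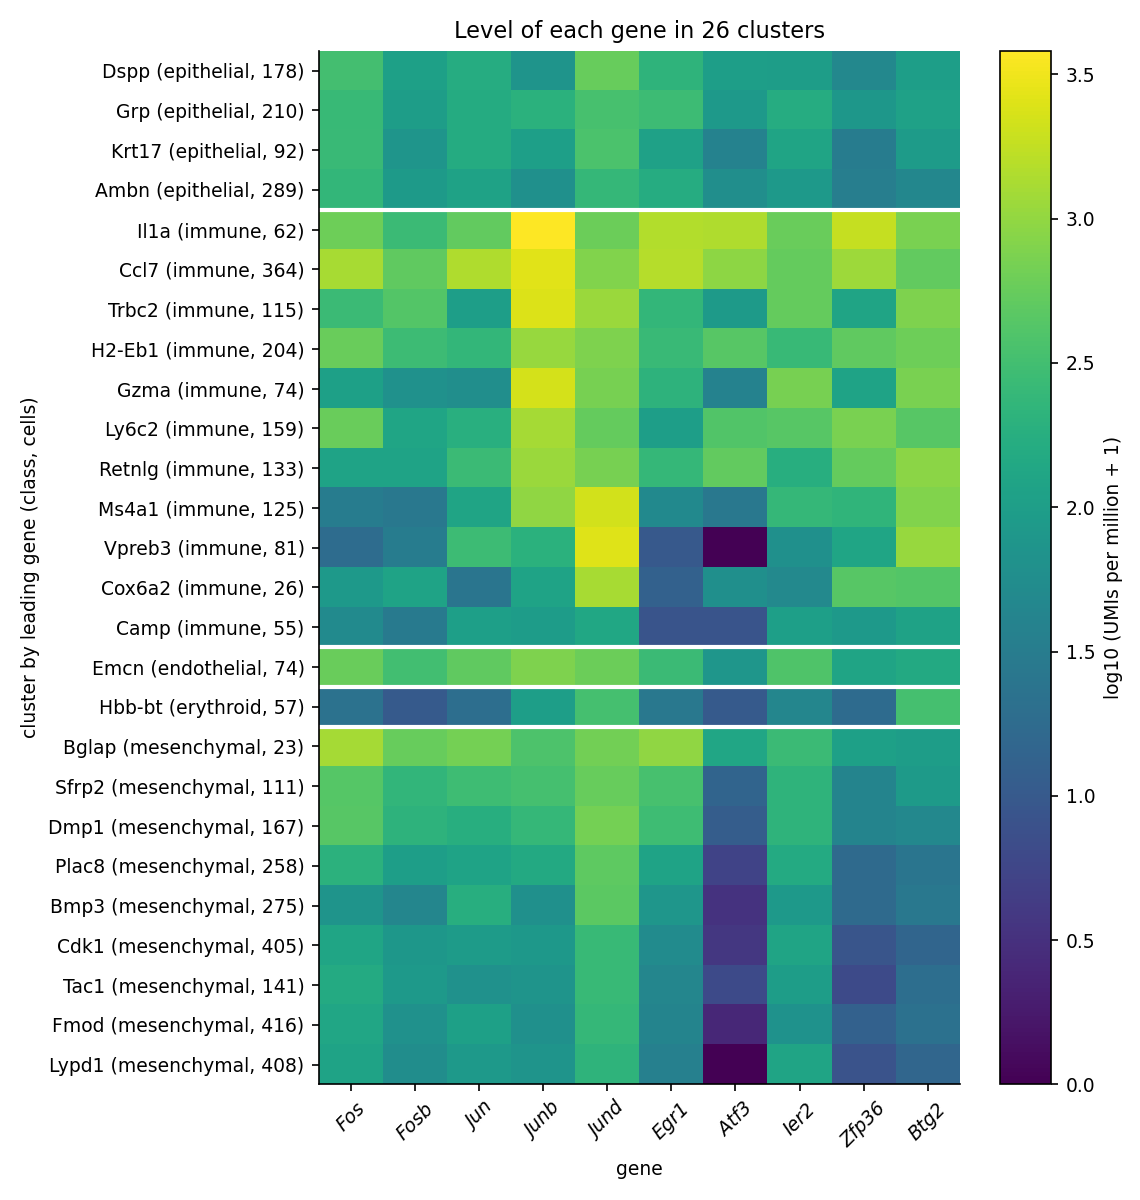
Level of each of the 10 genes, as log10 of CPM plus 1, in 26 clusters (rows, by leading gene, with class and number of cells) ordered by class and then by summed level. The B clusters Ms4a1 and Vpreb3 are bright for Jund and Btg2 and dark for Fos, and Atf3 is at 0 UMIs in the Lypd1 and Vpreb3 clusters.

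Across the 26 clusters Fos and Fosb had the most similar levels of the 45 pairs (Pearson r = 0.90), Junb and Ier2 followed (0.88), and Fos was unrelated to Jund (-0.05) and to Btg2 (-0.04). These are descriptions over 26 clusters that share 1 suspension. Ranked by level, neighbouring clusters had overlapping intervals in 20 to 24 of 25 neighbouring pairs for each gene, so only the broad order can be read. Among 8986 other genes, those whose cluster profile was most like that of the 10 together included Gadd45b (r = 0.90), a stress-induced growth arrest gene, Ccnl1 (0.89), Tgoln1 (0.88), the early gene Ier5 (0.87), Sertad1 (0.85), Mepce (0.85), Hexim1 (0.85), Csrnp1 (0.84) and Arf6 (0.84). Gadd45b stood at 1035 CPM in the Ccl7 cluster and 15.3 CPM in the Lypd1 cluster.

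Single cells were compared after thinning each to 2000 UMIs, which kept 711 of 769 epithelial, 948 of 1398 immune, 66 of 74 endothelial, 57 of 57 erythroid and 2033 of 2204 mesenchymal cells. At least 5 of the 10 genes had a UMI in 7.31% of epithelial (5.51 to 9.48), 57.8% of immune (54.6 to 61.0), 37.9% of endothelial (26.2 to 50.7), 3.51% of erythroid (0.428 to 12.1) and 4.38% of mesenchymal cells (3.53 to 5.36). In the Ccl7 cluster it was 86.6% of cells (82.4 to 90.1), in neutrophil-like cells 16.7% and in the Camp cluster 0 of 53. None of the 10 was seen in 35.9% of epithelial, 4.43% of immune and 34.7% of mesenchymal cells. Epithelial and mesenchymal cells thus had most cells with 0 or 1 gene and a thin tail that reached all 10 genes, in 6 epithelial cells and 1 mesenchymal cell.

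**Figure D4:**
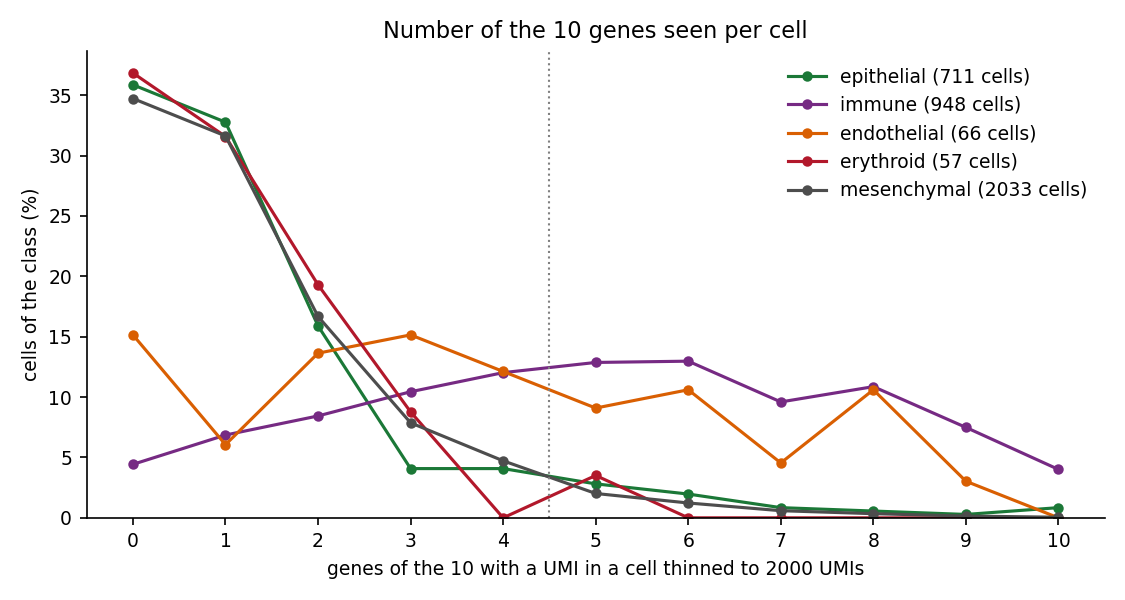
Share of cells (vertical axis, percent of the class) by the number of the 10 genes with a UMI after thinning to 2000 UMIs, for 5 classes. Immune cells spread around 5 or 6 genes, while epithelial, erythroid and mesenchymal cells fall off from 0, with a tail past the dotted line at 5 genes in 7.31% of epithelial and 4.38% of mesenchymal cells.

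The tail carried much of the class level in the epithelium. The 10% of epithelial cells with the most UMIs of a gene, 77 cells, held 89.4% of the Fos UMIs, 85.4% of the Egr1 UMIs and, since Atf3 was seen in 9.88% of cells, all Atf3 UMIs, but 47.7% of the Jund UMIs. In the mesenchyme the same share of cells held 78.3% of Fos and 46.1% of Jund, and in the Ccl7 cluster 30.2% of Fos and 31.3% of Jund. These shares were taken on unthinned counts, so deep cells weigh more in them. The deepest of 3 equal groups of epithelial cells by UMIs, 257 cells, held 10784 of the 14882 epithelial UMIs of the 10 genes. The epithelial excess of Atf3 over mesenchymal cells thus lay in few cells, since after thinning Atf3 had a UMI in 4.78% of epithelial (3.33 to 6.62) and 0.787% of mesenchymal cells (0.45 to 1.27), beside 1.75% of erythroid cells and 13.3% of neutrophil-like cells. Without thinning, the shares were 9.88% of epithelial and 2.36% of mesenchymal cells.

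The 52 epithelial cells with at least 5 of the genes held 54.1% of the UMIs of the 10 genes among thinned epithelial cells. They came from all 4 epithelial clusters: 17 of 280 Ambn cells, 18 of 181 Grp cells, 15 of 169 Dspp cells and 2 of 81 Krt17 cells. Their depth was like that of the other epithelial cells, with a median of 9836.5 UMIs and 5.93% mitochondrial counts, against 9926 UMIs and 5.79% in the others. Their median doublet score was higher, at 0.0535 against 0.0252 in the other epithelial cells. The 7 macrophage markers summed to 33.6 CPM in these cells, with 2 at 0, and to 19.1 CPM in the other epithelial cells, against 14582 CPM in the Ccl7 cluster. The part of doublets in this tail was not tested.

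Other genes of the early response, which were not used to pick these cells, stood higher in them. All 15 measured of 18 further early transcription factors were at least 2-fold higher in the 52 epithelial cells than in the other 659, with a median log2 ratio of 2.55. Of all 10551 measured genes 9.0% were higher and 4.86% lower, with a median of 0.10. Nr4a1, an orphan nuclear receptor of the early wave, had 229.9 CPM in these cells and 5.45 CPM in the other epithelial cells (log2 5.40, interval 4.95 to 5.87). Egr2 had 79.6 CPM in these cells and 2.18 CPM in the others, and Maff, a small Maf factor, 43.7 CPM in these cells and 0.764 CPM in the others. Among early genes without DNA-binding products 22 of 26 measured were higher. They included Arc, best known from neurons, with 81.9 CPM in these cells and 0.982 CPM in the others (log2 6.38), and the matricellular gene Cyr61 with 216 and 6.87 CPM. Rhob, at 351 CPM in these cells and 363 CPM in the others, was not among them.

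Heat shock genes went with this tail in part. In the 52 epithelial cells 7 of 12 were higher, led by Hspa1a (2039.9 CPM, against 92.1 CPM in the other epithelial cells), Hspa1b (1715 CPM, against 78.9 CPM) and Dnajb1 (341 CPM, against 20.7 CPM), the inducible HSP70 chaperones and their cochaperone. The mitochondrial chaperone Hspd1 had 121 CPM in these cells and 101 CPM in the others. Hspa1a and Hspa1b are near-identical copies, so their separate counts are uncertain. Of 16 upstream kinases and serum response regulators 1 was higher (Elk1, log2 1.42, interval 0.37 to 2.36) and 0 lower. Of 12 measured other AP-1 and bZIP genes 3 were higher.

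The mesenchymal tail of 89 cells, which held 27.5% of the UMIs of the 10 genes, also had further early genes higher. It was uneven over clusters, with 21 of 161 Dmp1 cells, 17 of 99 Sfrp2 cells and 9 of 23 Bglap cells. Each other mesenchymal cluster gave 5 to 10 cells. The part of cluster make-up in the differences of this tail was not tested. There 13 of 17 measured further early factors were at least 2-fold higher than in the other 1944 cells and 0 lower, while of all 12027 measured genes 5.66% were higher and 9.07% lower. Nr4a1 had 124 CPM in these cells and 15.5 CPM in the others, and Maff 20.6 and 1.63 CPM. Among the other early genes 16 of 26 were higher, and among heat shock genes 4 of 12, including Hspa1a (895 CPM, against 149 CPM in the other mesenchymal cells). Of 15 other bZIP genes 0 were higher and 3 lower. The macrophage markers summed to 19.7 CPM in these cells and 23.5 CPM in the others. In immune cells the 548 cells with at least 5 genes had a macrophage marker sum of 10033 CPM, against 3785 CPM in the other 400. Of 18 factors 11 were higher in them, of 27 other early genes 22 and of 12 heat shock genes 6. Of 8791 measured genes 12.8% were higher and 5.72% lower. The 548 cells included 284 of 328 thinned Ccl7 cells and 41 of 47 thinned Il1a cells. The part of cluster make-up in these immune differences was not tested.

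Over cells, the correlation was above 0 in all 45 pairs of the 10 genes within epithelial, immune and mesenchymal cells at 2000 UMIs. The median Pearson r of the pairs was 0.45 in 711 epithelial, 0.30 in 948 immune and 0.23 in 2033 mesenchymal cells. The median of the genes' correlations with other genes was within 0.01 of 0 in each class. The closest epithelial pair was Fos with Egr1 (r = 0.76), followed by Jun with Egr1 (0.73) and Fos with Jun (0.70). In immune cells it was Jun with Egr1 (0.54), and in mesenchymal cells Fos with Junb (0.52). Jund was the loosest in the immune class, with 0.05 to Egr1 and 0.07 to Zfp36. The cells share 1 suspension, and by rank the epithelial median was 0.18.

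**Figure D5:**
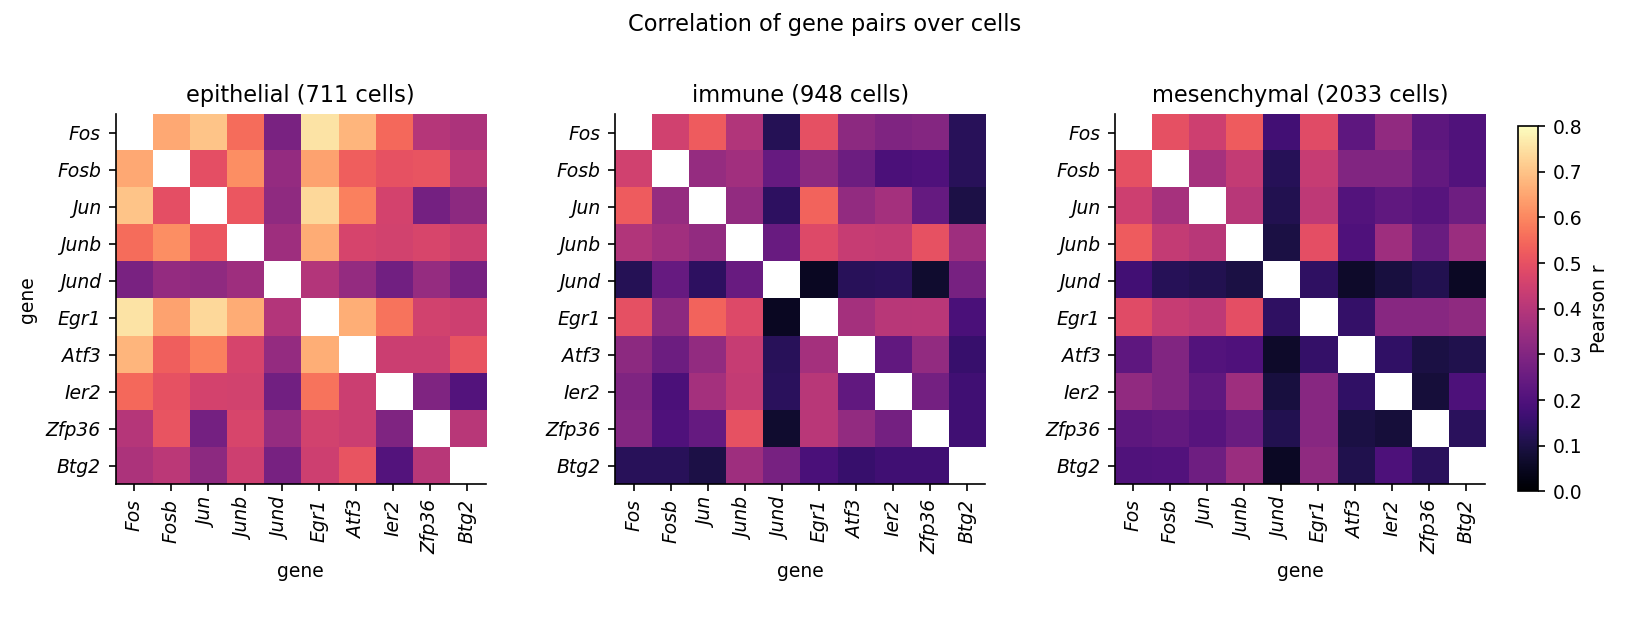
Pearson correlation of each pair of the 10 genes over single cells thinned to 2000 UMIs, in epithelial, immune and mesenchymal cells (colour from 0 to 0.8, diagonal blank). The Fos, Jun and Egr1 block is brightest in epithelial cells, where Fos with Egr1 reaches 0.76, and the Jund row is dark in immune and mesenchymal cells.

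The genes most like the 10 over cells, by their mean correlation with the summed 10 within the 3 classes among 2525 genes, included Hspa1a (mean r = 0.55), Dnajb1 (0.50), Hspa1b (0.50), the early genes Ier3 (0.45), Phlda1 (0.39) and Ier5 (0.37), the chaperone genes Hspa8 (0.38) and Hsp90aa1 (0.35), and Rsrp1 (0.34). Hspa1a reached 0.62 in epithelial, 0.53 in immune and 0.52 in mesenchymal cells. Ier5 was also among the genes most like the 10 over clusters.

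Between classes, the further early genes behaved like the 10 in the immune and endothelial comparisons. In immune over mesenchymal cells 16 of 18 further factors were higher and 0 lower, with Nr4a3 at 137 CPM in immune and 3.00 CPM in mesenchymal cells and the macrophage and granulocyte factor gene Cebpb at 959 CPM in immune and 29.2 CPM in mesenchymal cells. Klf4 (166 CPM in immune, 139 CPM in mesenchymal cells) and Srf (35.5 and 18.2 CPM) did not reach 2-fold. Of 28 early genes without DNA-binding products 23 were higher, led by Ptgs2, the inducible cyclooxygenase (83 CPM in immune, 0.389 CPM in mesenchymal cells), and Tnfaip3, an inhibitor of NF-kappaB signalling (219.5 and 1.61 CPM). Ctgf (0.934 CPM in immune, 32.0 CPM in mesenchymal cells) and Cyr61 (12.7 and 39.2 CPM), both matricellular genes, were the 2 lower ones. Heat shock genes were higher in 7 of 12 and lower in 1, with Hspa1a at 1663 CPM in immune and 197 CPM in mesenchymal cells and Hspb1, the lower one, at 12.7 and 39.6 CPM. Of 15 other bZIP genes 10 were higher and 1 lower, and of 16 upstream genes 3 were higher and 2 lower, set against 18.8% higher and 32.6% lower over all measured genes. The upstream count is near that share and is no result about that list.

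In endothelial over mesenchymal cells 13 of 17 measured factors and 26 of 27 other early genes were higher and 0 lower. Klf2, a factor that responds to blood flow, had 541 CPM in endothelial and 28.4 CPM in mesenchymal cells, and Sgk1 460.1 CPM in endothelial and 20.7 CPM in mesenchymal cells. Dusp1, a phosphatase that shuts off MAP kinases, had 476 CPM in endothelial and 35.4 CPM in mesenchymal cells. Of heat shock genes 5 of 12 were higher and 1 lower, of bZIP genes 3 of 15 higher and 3 lower, and of upstream genes 4 of 16 higher and 3 lower, set against 18% higher and 16.9% lower over all measured genes. The bZIP and upstream counts are near those shares and are no result about these lists. The ternary complex factor gene Elk3 stood at 321 CPM in endothelial and 30.7 CPM in mesenchymal cells.

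In epithelial over mesenchymal cells 10.5% of all measured genes were higher and 20% lower. Of 17 measured factors 1 was higher (Myc, 22 CPM in epithelial cells, against 9.17 CPM in mesenchymal cells) and 4 were lower, including Nr4a2 (3.06 and 34.0 CPM). Of 27 other early genes 7 were higher, among them Arc (log2 2.33), Gadd45a (1.76) and Rhob (1.59), and 2 lower, with Ctgf at -5.53. Of heat shock genes 1 of 12 was higher, Hspb1 (530.1 CPM in epithelial, 39.6 CPM in mesenchymal cells), and 0 were lower. The bZIP list had 2 of 15 higher, among them Maf (593 CPM in epithelial, 57.7 CPM in mesenchymal cells), and 5 lower. The upstream list had 0 of 16 higher and 2 lower. The factor, heat shock, bZIP and upstream counts are near the shares over all measured genes and are no result about these lists.

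Depth and mitochondrial share moved with some of these levels. In mesenchymal cells the summed level was 824 CPM in the shallowest of 3 equal groups by UMIs, 958 CPM in the middle and 1407 CPM in the deepest group. In the Ccl7 cluster it ran the other way, 16285, 13014 and 9139 CPM. By mitochondrial share (up to 5%, 5 to 10% and 10 to 20%) the Ccl7 cluster had 7620.4, 10910.0 and 13242 CPM, mesenchymal cells 1073, 1275 and 1069 CPM epithelial cells 1262, 1786 and 1167 CPM and immune cells as a whole 3607, 8125 and 7853 CPM. The lowest Ccl7 level of these bins, 7620.4 CPM, was above every mesenchymal and epithelial one, though the bins were not matched in depth between groups. The part of depth and mitochondrial share in these levels was not tested. The tissue was enzymatically dissociated in full and no undissociated control was analysed here, so expression in the tissue and expression induced by its handling cannot be told apart.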

How the data were processed

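Counts of UMIs per gene and barcode were deposited by the authors as 1 unfiltered 10x matrix of both lanes, 68931830 UMIs in all. Per the submitters' processing notes, R 3.4.1, Seurat and the mm10 build were used. No label or header used here names the aligner or its counting rules. The counts carry no normalization, so depth enters through the totals.

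Cells had at least 500 genes and at most 20% mitochondrial counts (4775; 561 barcodes exceeded it). A doublet score above 0.15 removed 122 (2.55%), since the caller's own limit marked 1 cell, and haemoglobin above 5% outside erythroid cells removed 151 (3.16%). Doublet calling, 2000 variable genes, 30 components, 15 neighbours and Leiden clustering at resolution 1.0 were run in scanpy 1.11.5 (leidenalg 0.10.2, Python 3.11.15), leaving out the 99 listed genes. Classes were named from 27 marker lists, of whose genes 1 was missing from the matrix. A class needed at least 3 of its markers.

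Levels are CPM of summed counts with exact Poisson intervals, shares have Clopper-Pearson intervals, and ratios have conditional binomial intervals. A count of 0 allows up to 3 counts. Thinning drew 2000 UMIs per cell, and 687 cells had fewer. With 1 sample no p-value was computed. The scripts were tested on simulated data. The members and lists were chosen with earlier results of these data known. The named genes are the 10 members, the genes with the most extreme ratios of each further list, and the 10 most like the members over clusters and over cells. Some genes that this rule names are not reported here. Further genes named to complete a short count were chosen after their values were seen. A gene at 0 on one side was set at 3 counts there as a bound and never called higher on that side. The clusters singled out and the cells with at least 5 members were chosen after their values were seen. Alternatives changed the doublet, gene, mitochondrial and UMI limits, the totals, the weighting, the thinning and the clustering.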

Additional observations from a re-analysis of the deposited data

Results flagged for a closer look

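Barcodes above 20% mitochondrial counts, which none of the comparisons used, carried the 10 genes at a summed level of 3263 CPM (3163 to 3366) over 561 barcodes, against 2275 CPM in all cells analysed. With mitochondrial UMIs left out of the totals the levels were 4584 CPM in these barcodes, 2441 CPM in all cells analysed and 1839.7 CPM in droplets of 1 to 20 UMIs. Junb stood at 670.5 CPM in these barcodes and 381 CPM in all cells analysed, and Btg2 at 358 and 133 CPM. These barcodes were not assigned to cell classes, and the part of their cell make-up was not tested.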

How the results depend on the processing

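No paired analysis was possible because the matrix is 1 sample with no map of cells to lanes. With 1 sample, nothing below speaks of spread between animals. Of 83 recomputed counts and correlations, 75 stayed within 1.5 times (counts) or 0.05 (median correlations) of the value given, and 8 moved. Of the other recomputed values, 313 stayed within their tolerance (a gene's own 95% interval, or 0.1 log2 for medians and sums of the 10 genes) and 131 moved beyond it, none with a change of sign of a called ratio. Without the Dmp1, Sfrp2 and Bglap clusters in the mesenchyme 5 genes were higher in epithelial cells in place of 3, and without the Ccl7 and Il1a clusters 6 were higher in immune cells in place of 10, both chosen after seeing the data. The median correlation of pairs moved to 0.30 in epithelial, 0.21 in immune and 0.13 in mesenchymal cells at 1000 UMIs per cell, to 0.18 in epithelial and 0.12 in mesenchymal cells by Spearman's rank, and to 0.21 in immune cells with cluster means removed, the last chosen after seeing the data. The cause was not tested. Cells weighted equally and cells thinned to 2000 UMIs each added Egr1 to the genes higher in epithelial cells. Atf3 ranged from 3.59 to 4.88 on the log2 scale in epithelial over mesenchymal cells, and Btg2 from 1.36 to 2.07. In immune over mesenchymal cells Atf3 ranged from 5.49, without the Ccl7 and Il1a clusters, to 7.86, without the Dmp1, Sfrp2 and Bglap clusters. Depth limits the small groups: the Bglap cluster has 23 cells, the endothelial class 74, and endothelial Atf3 rests on 33 UMIs.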
